A study of Mus musculus with 26 samples.

Results

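Collagens and integrins were examined as 62 genes in mouse embryonic stem cells (mESCs) by RNA-seq, out of 24015 genes in the deposited tables. The members were taken by symbol: the genes named Col, a number, a and a number, without Col4a1 and Col4a2, and the genes whose names begin with Itga or Itgb and a number. They comprised 42 collagens and 20 integrins, without integrin alphas named by a letter, such as Itgav. Of these, 33 (20 collagens and 13 integrins) reached 1 RPKM or more in 2 or more libraries, the level needed for a fold change, as did 13477 genes in all. RPKM scales reads to gene length and sequencing depth, so levels can be compared between genes.

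All 15 libraries came from mESCs with the Stella:GFP reporter. They held 1 library of wt cells in serum+LIF, 2 of wt cells in 2i+LIF (serum-free medium with inhibitors of MEK and GSK3β), 3 Mtgr1-/- clones (A3, C1, C3), the FH-Mtgr1 lines made by adding FLAG-HA-tagged Mtgr1 back to those clones, 2 Prdm14-/- clones (G6, F10), the FH-Prdm14 lines of those clones with tagged wild-type Prdm14, and the E294K lines of the same clones with Prdm14 carrying the E294K substitution. All conditions except wt 2i+LIF had spent 5 days in serum+LIF without feeder cells, after maintenance in 2i+LIF on dishes coated with laminin, itself an integrin ligand. Prdm14 is a PR domain protein and Mtgr1 (gene Cbfa2t2) its ETO family co-repressor partner, and E294K was designed to break their contact. The knockouts were made with CRISPR-Cas9, each library is 1 clone or 1 rescue line, and nothing states whether the 2i+LIF libraries are separate cultures. P-values measure the spread between these libraries.

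Depth ranged from 10668572 to 21218414 reads on genes (median 13793727). Prdm14 was at 2.77 RPKM in wt serum+LIF, at 1.96 and 3.60 RPKM in the Prdm14-/- clones and at 79.8 to 116 RPKM in the FH-Prdm14 and E294K lines. Cbfa2t2 was at 40.7 RPKM in wt serum+LIF, 18.0 to 19.9 RPKM in the Mtgr1-/- clones and 25.5 to 28.0 RPKM in FH-Mtgr1. The mRNA of an allele with a small CRISPR deletion can persist, so these levels do not check the knockouts. Pou5f1 and Sox2, which mark mESCs, were at 308 RPKM or more and 118 RPKM or more in every library. The summed RPKM of 5 mESC markers was 1105 to 1296 in Mtgr1-/- and 2051 to 2760 in FH-Mtgr1, and 2024 to 2841 in Prdm14-/- and 3628 to 3815 in FH-Prdm14. Dppa5a made up most of the gap for Mtgr1, at 295 to 494 RPKM in Mtgr1-/- and 1165 to 1830 RPKM in FH-Mtgr1. Pou5f1 and Nanog were also lower in Mtgr1-/-, Sox2 overlapped, and Sall4 was higher (83.2 to 86.7 against 46.8 to 50.6 RPKM). The part of these differences in the results was not tested. Of 8 markers of feeder fibroblasts or other mesenchyme, Dcn, Lum, Postn, Fap and Prrx1 stayed under 0.5 RPKM throughout, with Fap at 0 in all libraries. The summed RPKM of the 8 markers was 7.21 to 9.26 in Mtgr1-/-, 22.0 to 27.4 in FH-Mtgr1, 11.5 to 13.2 in Prdm14-/- and 12.6 to 13.9 in FH-Prdm14. Most of this sum was Thy1, at 5.67 to 6.73 RPKM in Mtgr1-/- and 19.8 to 24.6 RPKM in FH-Mtgr1, and Pdgfrb was also lower in Mtgr1-/-. Twist2 went the other way (0.369 to 1.62 against 0.0553 to 0.120 RPKM), as did Dcn and Postn at their low levels. The sum of 5 trophoblast markers was 100.2 to 151 in the knockouts and 20.4 to 51.7 in all other libraries. Krt7 gave most of it in the knockouts, Elf5 stayed under 0.5 RPKM, and its part in the results was not tested. The sum of 7 primitive and parietal endoderm markers was 7.58 to 11.0 in Mtgr1-/- and 12.7 to 19.1 in FH-Mtgr1, and 9.29 to 20.9 in Prdm14-/- and 4.98 to 6.52 in FH-Prdm14. Dab2 made up most of it in Mtgr1-/- and was higher there (5.42 to 6.22 against 3.76 to 5.34 RPKM), while Gata4 and Gata6 were lower. The part of this sum in the results was not tested.

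Collagens are secreted or membrane-bound proteins of the extracellular matrix built from chains that wind into a triple helix, which requires glycine at the start of each Gly-X-Y triplet. Fibrillar collagens form the banded fibres of connective tissue, FACIT collagens sit on those fibres, type VI collagens form beaded filaments, and collagen XVIII belongs to basement membranes. Integrins are receptors made of an alpha and a beta subunit that link laminin, fibronectin or collagen outside the cell to actin inside. In early mouse development they anchor epiblast cells to the basement membrane, and their signals shape the exit from naive pluripotency.

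The coding repeat that defines the family is shown for 3 fibrillar collagens on which the results turn. Each line gives the first 24 codons of the longest unbroken run of Gly-X-Y triplets, read from the GENCODE vM1 transcript on NCBIM37, with the glycine codon that opens each triplet in capitals. The genes lie at chr1:45431166-45560127 (Col5a2, minus strand), chr11:94797538-94814356 (Col1a1, plus strand) and chr15:97806033-97835155 (Col2a1, minus strand).
Col5a2: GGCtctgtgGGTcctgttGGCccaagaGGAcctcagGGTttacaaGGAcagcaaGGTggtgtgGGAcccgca
Col1a1: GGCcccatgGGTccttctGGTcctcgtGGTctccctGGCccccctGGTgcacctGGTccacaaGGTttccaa
Col2a1: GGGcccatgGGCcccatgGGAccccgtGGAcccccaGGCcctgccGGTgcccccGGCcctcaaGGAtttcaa
The runs were 339 triplets long in Col5a2, 338 in Col1a1 and 339 in Col2a1. Over the 20 collagens past the filter the longest run had 23 to 339 triplets (median 113), with the shortest in Col26a1, and in 18 of the 20 the run was richer in G and C than the whole coding sequence. The members past the filter had a median transcript GC content of 57.6%, against 51.7% over 12047 genes with a value. Their median length was 5133 bases, against 2750 bases over all 13477 genes. The members called higher and lower after adjustment for each are given with each comparison.

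For the integrins, the 250 bases before the transcription start are shown for Itga3 and Itgb7. Itga3 had the highest level in the knockouts among the examined alphas, and Itgb7 was the examined integrin that fell most in Prdm14-/- against FH-Prdm14. They are RefSeq windows on GRCm38.p6, on which the deposited values were not built, and capitals mark the GC box, GGGCGG on either strand.
Itga3, upstream start (chr11:95076715-95076964, minus strand): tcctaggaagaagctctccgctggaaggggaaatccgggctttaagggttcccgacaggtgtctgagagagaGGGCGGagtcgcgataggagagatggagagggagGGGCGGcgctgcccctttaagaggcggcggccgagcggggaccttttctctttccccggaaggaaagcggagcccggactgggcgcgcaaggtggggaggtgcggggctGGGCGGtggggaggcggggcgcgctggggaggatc
Itga3, downstream start (chr11:95069199-95069448, minus strand): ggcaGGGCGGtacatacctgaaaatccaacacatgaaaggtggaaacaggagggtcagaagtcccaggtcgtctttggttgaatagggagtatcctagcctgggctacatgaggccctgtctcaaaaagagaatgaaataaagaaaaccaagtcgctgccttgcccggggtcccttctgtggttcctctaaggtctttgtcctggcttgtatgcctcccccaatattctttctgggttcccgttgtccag
Itgb7, only start in the table (chr15:102231936-102232185, minus strand): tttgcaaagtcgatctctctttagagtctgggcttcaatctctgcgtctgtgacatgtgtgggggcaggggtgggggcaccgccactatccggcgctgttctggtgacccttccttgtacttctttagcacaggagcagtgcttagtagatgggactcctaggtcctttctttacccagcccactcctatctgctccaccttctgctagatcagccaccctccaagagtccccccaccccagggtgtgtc
The windows of Itga3 held 3 and 1 GC boxes and that of Itgb7 held 0. Windows were found for 22 of the 33 members. Of their 25 windows 16 (64%) held a GC box, against 32.7% of all 32851 windows, and 2 (8%) held TATAAA on either strand, against 12.4%. These matches describe the letters only.

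Among the collagens examined, which leave out Col4a1 and Col4a2, Col18a1 had the highest mean level. It was at 106.6 RPKM in wt serum+LIF and took 77.5% of the RPKM summed over the examined collagens there. In the 15 libraries it ranged from 27.6 RPKM (wt 2i+LIF 2) to 286 RPKM (Prdm14-/- G6). No other of these collagens reached a mean of 10 RPKM over the libraries, the next being Col9a2 at 6.88 RPKM, a FACIT chain, and Col2a1 at 6.65 RPKM, the fibrillar collagen of cartilage. Among the integrins examined, which leave out Itgav, Itgb1, the common beta partner, had the highest mean (72.8 RPKM). It was followed by Itga3 (38.6 RPKM) and Itga6 (32.9 RPKM), which pair with Itgb1 to bind laminin. Then came Itgb5 (22.1 RPKM) and Itga5 (21.1 RPKM), the fibronectin receptor alpha. The remaining examined integrins had means under 7 RPKM.

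The other 29 members (22 collagens and 7 integrins) stayed below the filter. None of the 4 collagen-binding alphas (Itga1, Itga2, Itga10, Itga11) passed it, and the highest value among them was 1.23 RPKM, for Itga10 in FH-Prdm14 G6. Col16a1 (1.16 RPKM in Prdm14-/- G6) and Col12a1 (1.05 RPKM in Mtgr1-/- C3) also reached 1 RPKM in 1 library, and 8 of the 29 never reached 0.1 RPKM. Col3a1, a main fibrillar collagen of mesenchyme, was at 0.619 RPKM at most.

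**Figure D1:**
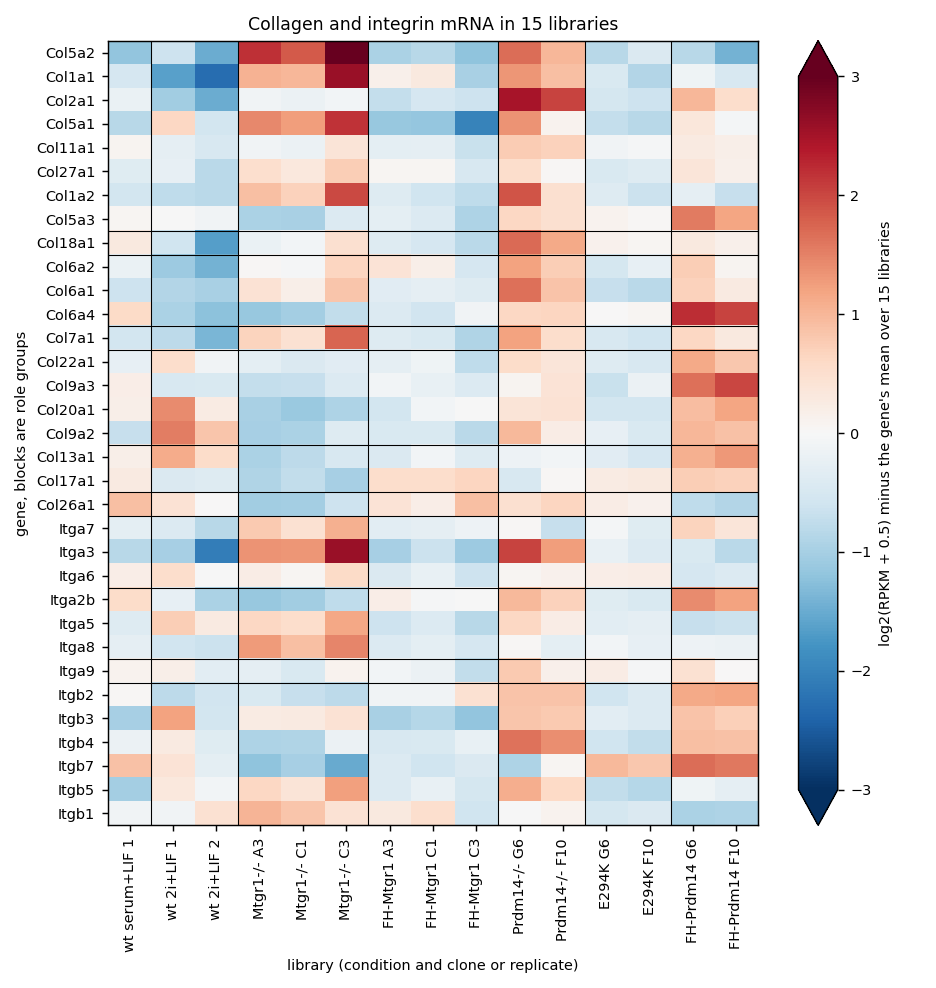
Heat map of the 33 members past the filter (rows, in role groups) in 15 libraries (columns), coloured by log2(RPKM + 0.5) minus the gene's mean over the libraries. Col5a2, Itga3 and Col1a1 are high in all Mtgr1-/- and Prdm14-/- clones, while Col9a3 and Col6a4 are highest in the FH-Prdm14 lines.

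The loss of Mtgr1 was compared with the FH-Mtgr1 lines. Of the 33 members 16 were higher (26.2% of all genes tested were) and 7 lower (26.1% of all genes), with a median log2 fold change of 0.49 over the members and -0.01 over all genes. Col5a2 and Col1a2 passed the filter only through knockout clones, with at most 0.644 and 0.227 RPKM in the other lines. Itga8 passed it only through Mtgr1-/- clones, with at most 0.373 RPKM elsewhere. The filter thus favoured calls of higher for these genes in the knockouts, here and in the comparisons below. Of 8 fibrillar collagens 6 rose and 0 fell, and all 3 laminin-binding alphas rose. Of the 3 examined alphas that bind RGD, a peptide motif of fibronectin and other ligands, 2 rose and 1 fell, and Itgav was not examined. Of 6 betas 3 rose and 2 fell. Col6a1 and Col7a1 also rose. In bulk RNA, a change in the share of expressing cells and a change in RNA per cell cannot be told apart. The role groups were set with results known, so their counts are descriptions.

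Col5a2, a chain of collagen V that regulates fibril diameter, measured 6.54, 4.98 and 12.5 RPKM in Mtgr1-/- A3, C1 and C3, and 0.296, 0.363 and 0.166 RPKM in their FH-Mtgr1 lines. Its partner chain Col5a1 was at 12.05, 10.5 and 20.3 RPKM against 1.61, 1.58 and 0.654 RPKM. All knockout values lay above all rescue values, and the wt serum+LIF library was at 0.171 RPKM for Col5a2 and 2.08 RPKM for Col5a1. On the scale of log2(RPKM + 0.5), which understates the change of low genes, Col5a2 rose by 3.37 ± 0.33 (SE, n = 3 and 3, limma with Benjamini-Hochberg adjustment, adjusted p = 1.13e-05). Col5a1 rose by 3.05 ± 0.38 (adjusted p = 5.35e-05). The chains of collagen I, the most abundant fibrillar collagen of bone and skin, rose by 1.72 ± 0.42 (Col1a1, adjusted p = 0.00465) and 1.77 ± 0.37 (Col1a2, adjusted p = 0.0016). Col1a1 was at 5.38, 5.20 and 16.7 RPKM in A3, C1 and C3, against 2.67, 2.97 and 0.953 RPKM in the rescue lines. Col1a2 stayed low, at 0.914 to 2.95 RPKM in the knockouts and 0.169 RPKM or less in the rescue lines. Col27a1 (0.64) and Col2a1 (0.49) rose least among the fibrillar members, and Col7a1, the collagen of anchoring fibrils, rose by 1.54 ± 0.32.

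Itga3 measured 63.2, 62.7 and 150.4 RPKM in Mtgr1-/- A3, C1 and C3, and 12.2, 15.4 and 11.3 RPKM in FH-Mtgr1. The groups did not overlap, and Itga3 rose by 2.66 ± 0.35 on the log2 scale (limma, adjusted p = 7.06e-05). Itga6, the other main laminin-receptor alpha, was at 37.4, 33.3 and 47.9 RPKM against 23.6, 27.2 and 20.4 RPKM and rose by 0.72 ± 0.17 (adjusted p = 0.00341). Itga7, a laminin receptor of muscle, rose from 0.740 ± 0.0712 to 2.04 ± 0.545 RPKM (SD, n = 3). Of the RGD-binding alphas Itga5 rose by 1.39 ± 0.19 (from 12.4 ± 1.94 to 33.7 ± 8.49 RPKM, SD, n = 3), and Itga8 by 1.61 ± 0.18 from 0.143 ± 0.0504 RPKM. Itga2b, the platelet alpha that also marks early blood progenitors, fell by 1.03 ± 0.20. Among the betas, Itgb3 (1.33 ± 0.32), Itgb5 (1.13 ± 0.21) and Itgb1 (0.70 ± 0.25) rose, and the leukocyte betas Itgb7 and Itgb2 fell by 0.76 and 0.73. Itgb1 was at 138, 121 and 90.6 RPKM against 81.8, 95.8 and 44.4 RPKM, so that its groups overlapped. Col17a1 (−1.45 ± 0.16) and Col26a1 (−1.39 ± 0.21) were the collagens that fell most, with Col20a1 and Col6a4.

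Clone C3 was the highest of the 3 Mtgr1-/- clones for 28 of the 33 members, with a median ratio of 1.59 over the mean of A3 and C1, and of 3.16 for Col1a1. Without C3, 14 members were higher and 8 lower. Of the 23 members called, 17 remained called under every alternative setting. The others were Col2a1, Itgb7, Col20a1, Col27a1, Itgb1 and Col6a4. Leaving out FH-Mtgr1 C3 left 13 members higher and 4 lower, with Itgb1 at an adjusted p of 0.139 and Col27a1 at 0.109. With the parental clone as a block Col27a1 was at an adjusted p of 0.0531. With an adjustment for GC content 16 members were higher and 11 lower, and with one for gene length 13 and 8.

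**Figure D2:**
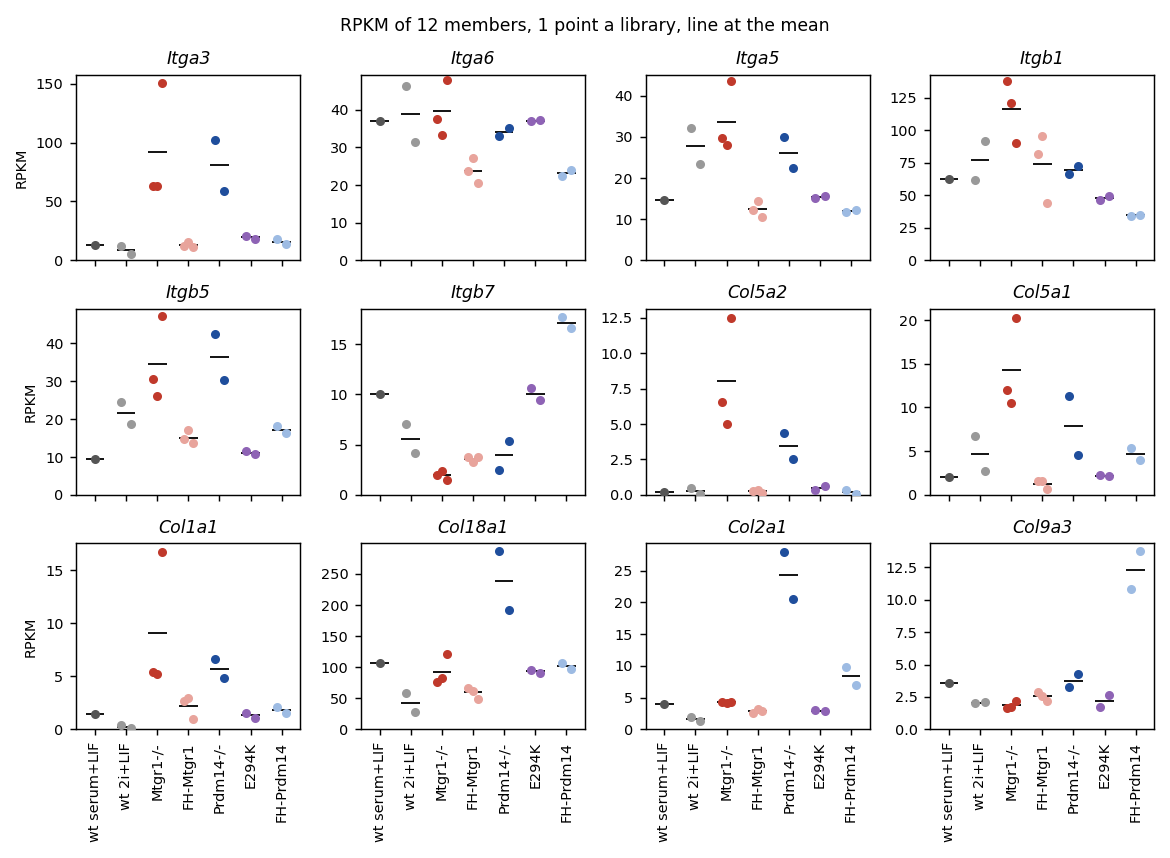
RPKM of 12 members in 7 conditions, 1 point for each library, with a line at the mean of the condition. Each vertical axis is linear and starts at 0, and Itga3 and Col5a2 sit higher in every Mtgr1-/- and Prdm14-/- clone than in every other library.

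The Prdm14-/- clones were compared with the FH-Prdm14 lines of the same clones. In these lines Prdm14 was at 116 and 79.8 RPKM, against 2.77 RPKM in wt serum+LIF, and the paper describes them as overexpressing it. Loss and overexpression of Prdm14 cannot be told apart in this comparison. Of the 33 members 9 were higher (11.4% of all genes tested were) and 7 lower (13.8% of all genes), with a median of 0.41 over the members and -0.09 over all genes. The members that rose were Col5a2, Itga3, Col1a2, Col2a1, Col26a1, Col18a1, Itga5, Itgb5 and Itgb1. Of these, Col5a2 and Col1a2 had passed the filter only through knockout clones. Those that fell were Itgb7, Col9a3, Col6a4, Col13a1, Col17a1, Itga7 and Col5a3.

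Col5a2 was at 4.38 and 2.57 RPKM in Prdm14-/- G6 and F10 and at 0.365 and 0.0732 RPKM in FH-Prdm14, a rise of 2.46 ± 0.41 (SE, n = 2 and 2, limma, adjusted p = 0.00107). Itga3 was at 102.5 and 59.1 RPKM against 17.8 and 13.7 RPKM and rose by 2.28 ± 0.43 (adjusted p = 0.00218). Col2a1 was at 27.9 and 20.5 RPKM against 9.78 and 6.92 RPKM and rose by 1.48 ± 0.21 (adjusted p = 0.000389). In each of these genes both knockout clones lay above both rescue lines. Col18a1 was at 286 and 192 RPKM, the highest levels of any member, against 106.5 and 96.7 RPKM in FH-Prdm14 (a rise of 1.2 ± 0.32, adjusted p = 0.0151). Without Prdm14-/- G6 the adjusted p of Col18a1 was 0.154. Itga5, Itgb5 and Itgb1 rose by 1.09 ± 0.23, 1.05 ± 0.25 and 0.99 ± 0.31, and these calls too were lost without G6 (adjusted p = 0.0634, 0.113 and 0.118).

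The members that fell were picked for a higher level in FH-Prdm14 than in Prdm14-/-. That their FH-Prdm14 values also lay above the wt serum+LIF library is thus partly built into the selection. Itgb7, the beta chain of the lymphocyte homing receptors, was at 2.48 and 5.39 RPKM in the clones, 17.7 and 16.6 RPKM in FH-Prdm14 and 10.0 RPKM in wt serum+LIF, and fell by 2.07 ± 0.30 (limma, adjusted p = 0.000434). Col9a3, a FACIT chain of collagen IX, was at 3.27 and 4.24 RPKM against 10.8 and 13.8 RPKM in FH-Prdm14, with 3.61 RPKM in wt serum+LIF, and fell by 1.59 ± 0.22. Col6a4 was at 1.45 and 1.497 RPKM against 5.39 and 4.67 RPKM, with 1.41 RPKM in wt serum+LIF, and fell by 1.48 ± 0.22. Thus Col9a3 and Col6a4 in the knockout were near the wt value, and the difference between FH-Prdm14 and wt was not tested. Of the 16 calls, 8 (Col5a2, Itga3, Col2a1, Col26a1, Itgb7, Col9a3, Col6a4 and Col13a1) held under every alternative. Without Prdm14-/- G6 9 members were called and without FH-Prdm14 F10 10. After an adjustment for GC content 13 members were higher and 9 lower, and after one for gene length 12 and 6. With the clone as a block Col5a3 was at an adjusted p of 0.0657.

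Of the 16 members higher in Mtgr1-/- and the 9 higher in Prdm14-/-, each against its own rescue lines, 7 were the same: Col5a2, Itga3, Col2a1, Itga5, Itgb5, Col1a2 and Itgb1. Among them Col5a2 and Col1a2 passed the filter only through the knockout clones. Itgb7, Col17a1 and Col6a4 were lower in both (3 of 7 and 3 of 7). The comparisons share no library, but both take their spread from the same fit of all libraries. The share of all genes called in both was not counted, so these overlaps are descriptions. Itga7 and Col26a1 were called in opposite directions. A test of the difference between the knockouts' effects called 6 members whose effect was higher (17.1% of all genes tested) and 2 whose effect was lower (14.3% of all genes) in Mtgr1-/-. After the adjustment for GC content 8 were higher and 4 lower, and for length 5 and 3. With voom on the reads 6 were higher and 5 lower, and without FH-Prdm14 F10 5 were called in all.

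**Figure D3:**
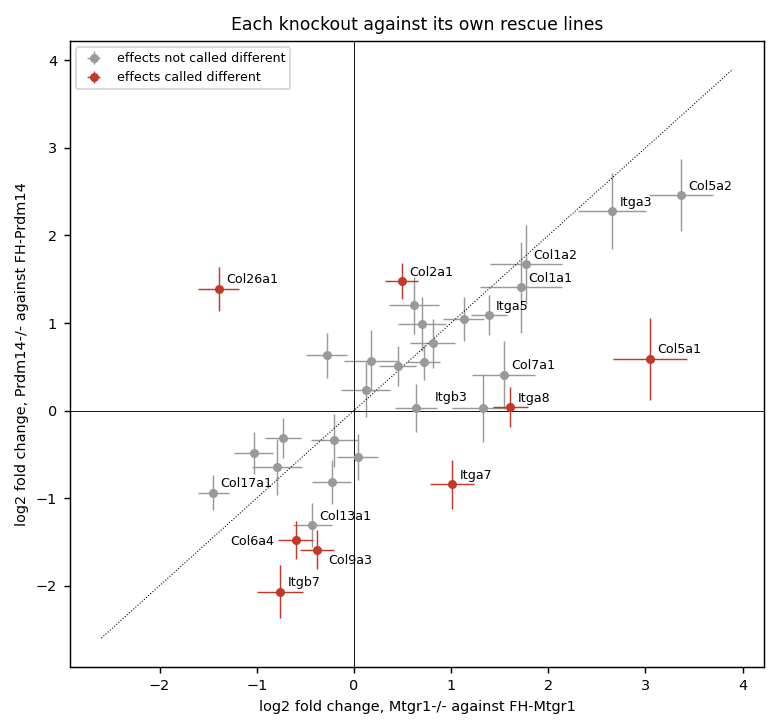
Log2 fold change of RPKM + 0.5 for 33 members in Mtgr1-/- against FH-Mtgr1 (horizontal) and Prdm14-/- against FH-Prdm14 (vertical), with bars of 1 SE and a dotted line of equal change. Red marks the 8 members whose effects differed (adjusted p under 0.05), among which Col5a1 lies far to the right and Col26a1 far to the upper left.

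Col5a1 had the largest difference between the knockouts' effects among the fibrillar collagens. Its rescue lines also differed, with means of 1.28 RPKM in FH-Mtgr1 and 4.65 RPKM in FH-Prdm14. Between the knockouts themselves (means of 14.3 RPKM in Mtgr1-/- and 7.91 RPKM in Prdm14-/-) Col5a1 was not called. In Prdm14-/- it was at 11.3 and 4.52 RPKM, against 5.34 and 3.96 RPKM in FH-Prdm14, a change of 0.59 ± 0.47 (limma, adjusted p = 0.39), and the effects differed by 2.46 ± 0.61 (adjusted p = 0.00965). Itga8 and Itga7 had effects larger by 1.57 ± 0.29 and 1.86 ± 0.36 in Mtgr1-/-. Col26a1 was at 0.448 to 0.783 RPKM in Mtgr1-/- and 1.76 to 3.17 RPKM in FH-Mtgr1, but at 2.23 and 2.59 RPKM in Prdm14-/- and 0.662 and 0.562 RPKM in FH-Prdm14. Its wt serum+LIF value was 3.19 RPKM, so that the FH-Prdm14 and Mtgr1-/- lines both lay below wt. For Itga3 the effects differed by 0.38 (95% interval −0.81 to 1.58), for Col1a1 by 0.31 (−1.14 to 1.77) and for Itgb1 by −0.29 (−1.15 to 0.58), intervals too wide to show equal effects.

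The clones of the knockouts were also compared directly, without their rescue lines. Between Mtgr1-/- and Prdm14-/- 3 members were higher in Mtgr1-/- (14.4% of all genes tested were) and 16 lower (21.1% of all genes). Itga8, Itga7 and Col5a2 were higher in Mtgr1-/-, though Col5a2 was not called under 9 of the alternatives (adjusted p = 0.295 without Prdm14-/- F10). Col2a1 was at 4.31, 4.07 and 4.32 RPKM in Mtgr1-/- and 27.9 and 20.5 RPKM in Prdm14-/- (−2.37 ± 0.19, limma, adjusted p = 1.22e-05). Itgb4, the beta subunit of hemidesmosomes that pairs with Itga6, was at 2.14, 2.20 and 3.96 RPKM in Mtgr1-/- and 15.0 and 12.8 RPKM in Prdm14-/- (−2.18 ± 0.24). Col18a1 was lower by 1.36 ± 0.29 in Mtgr1-/-, with 75.7, 81.9 and 122 RPKM. All 4 FACIT chains past the filter (Col9a2, Col9a3, Col20a1, Col22a1) were lower in Mtgr1-/-. Across 12047 genes the fold change in this comparison had a Spearman correlation of -0.278 with transcript GC content, and after the adjustment for GC content 5 members were higher and 11 lower, and for length 4 and 16. Without Prdm14-/- F10 12 members were called.

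Among the examined integrin alphas, which leave out Itgav and others named by a letter, the knockouts had a larger share of Itga3 and a smaller one of Itga6. Itga3 took 19% of the RPKM summed over the examined alphas in wt serum+LIF. It took 46.2%, 48.7% and 60.3% in the Mtgr1-/- clones, and 59.2% and 48.5% in the Prdm14-/- clones. In the FH-Mtgr1, FH-Prdm14 and E294K lines it was between 23.2% and 28.8%. Itga6 was 52.2% in wt serum+LIF, 19.2% to 27.4% in Mtgr1-/- and 19.1% and 28.9% in Prdm14-/-, although its own level in RPKM was higher in each knockout clone than in the FH-Mtgr1 and FH-Prdm14 lines. Itga5 stayed between 17.3% and 23.6% in all serum+LIF libraries and was 34.3% and 37.4% in wt 2i+LIF. The summed RPKM of the examined alphas was 122 to 250 in the knockouts and 46.2 to 77.6 in the other serum+LIF libraries. Among the betas Itgb1 made up 40.3% (FH-Prdm14 G6) to 79.3% (FH-Mtgr1 C1). Itgb7 made up 20.7% and 20% in FH-Prdm14, 11.4% in wt serum+LIF and at most 4.24% in the knockouts.

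**Figure D4:**
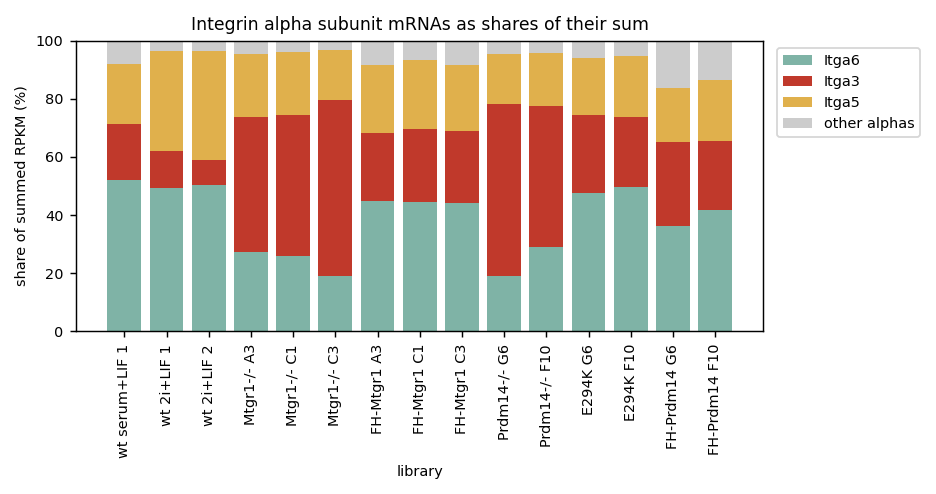
Stacked bars of the share of summed RPKM of the examined integrin alphas, without Itgav (vertical axis, percent), in 15 libraries (horizontal axis). The parts are Itga6, Itga3, Itga5 and all other examined alphas. In the 5 knockout clones the Itga3 share is 46.2% to 60.3%, above its share in every other library, where it is at most 28.8%.

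The E294K lines were compared with the FH-Prdm14 lines of the same clones. Of the 33 members 2 were higher in E294K (6.35% of all genes tested were) and 12 lower (13.2% of all genes), and 27 of the 33 had a log2 fold change below 0 (median -0.74, against -0.06 over all genes). All 4 FACIT members were lower. Col9a3 was at 1.74 and 2.65 RPKM in E294K and 10.8 and 13.8 RPKM in FH-Prdm14 (−2.25 ± 0.22, limma, adjusted p = 6.16e-05). Col6a4 was at 0.785 and 0.835 RPKM against 5.39 and 4.67 RPKM (−2.07 ± 0.22). Itga2b (−1.71 ± 0.24), Itgb2 (−1.67 ± 0.23), Itgb4 (−1.56 ± 0.26), Col13a1 (−1.61 ± 0.25), Col2a1 (−1.34 ± 0.21) and Col5a3 (−1.31 ± 0.25) were also lower. The groups did not overlap in any of these, which is partly built into their being called. In wt serum+LIF Col9a3, Col5a3, Itgb4 and Col2a1 were at 3.61, 2.51, 3.92 and 3.96 RPKM. Their means were 12.3, 6.98, 8.79 and 8.35 RPKM in FH-Prdm14 and 2.20, 2.50, 2.66 and 2.94 RPKM in E294K. FH-Prdm14 was also above wt for the other lower genes named here, which is partly built into the selection. The differences of either line from wt were not tested. Col26a1 (1.00 ± 0.25) and Itga6 (0.66 ± 0.20) were higher in E294K. With the clone as a block Itga6 was at an adjusted p of 0.0872, and neither it nor Col26a1 was called when any single library was left out.

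The 7 genes called higher in both knockouts than in their own rescue lines differed among themselves in E294K. Col2a1 was lower than in FH-Prdm14, as given above, and Itgb5, at 11.6 and 10.8 RPKM against 18.1 and 16.3 RPKM, differed by −0.60 (95% interval −1.14 to −0.05, limma, adjusted p = 0.117). Col1a2 was at most at 0.227 RPKM in either group. Col5a2 was at 0.361 and 0.644 RPKM in E294K, Itga3 at 21.0 and 18.3 RPKM, Itga5 at 15.2 and 15.8 RPKM and Itgb1 at 46.6 and 49.6 RPKM. Against FH-Prdm14 Col5a2 differed by 0.50 (95% interval −0.39 to 1.38), Itga3 by 0.32 (−0.61 to 1.24), Itga5 by 0.36 (−0.14 to 0.87) and Itgb1 by 0.46 (−0.21 to 1.13), and none of these 4 passed the test. Both E294K values lay above both rescue values for Itga3, Itga5 and Itgb1. With 2 libraries a group such an order arises easily, and its share over all genes was not counted. The upper bounds for Col5a2 and Itga3 were below their changes of 2.46 and 2.28 in Prdm14-/- against the same rescue lines. Across 12047 genes the fold change of E294K against FH-Prdm14 had a Spearman correlation of -0.398 with GC content. After the adjustment for GC content 3 members were higher and 12 lower, and for length 2 and 13. Of the 14 calls 9 held under every alternative (Col9a3, Col6a4, Itga2b, Itgb2, Col13a1, Col20a1, Itgb4, Col22a1 and Col2a1). Without FH-Prdm14 G6 9 members were called, and a fit with only these conditions called 24.

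**Figure D5:**
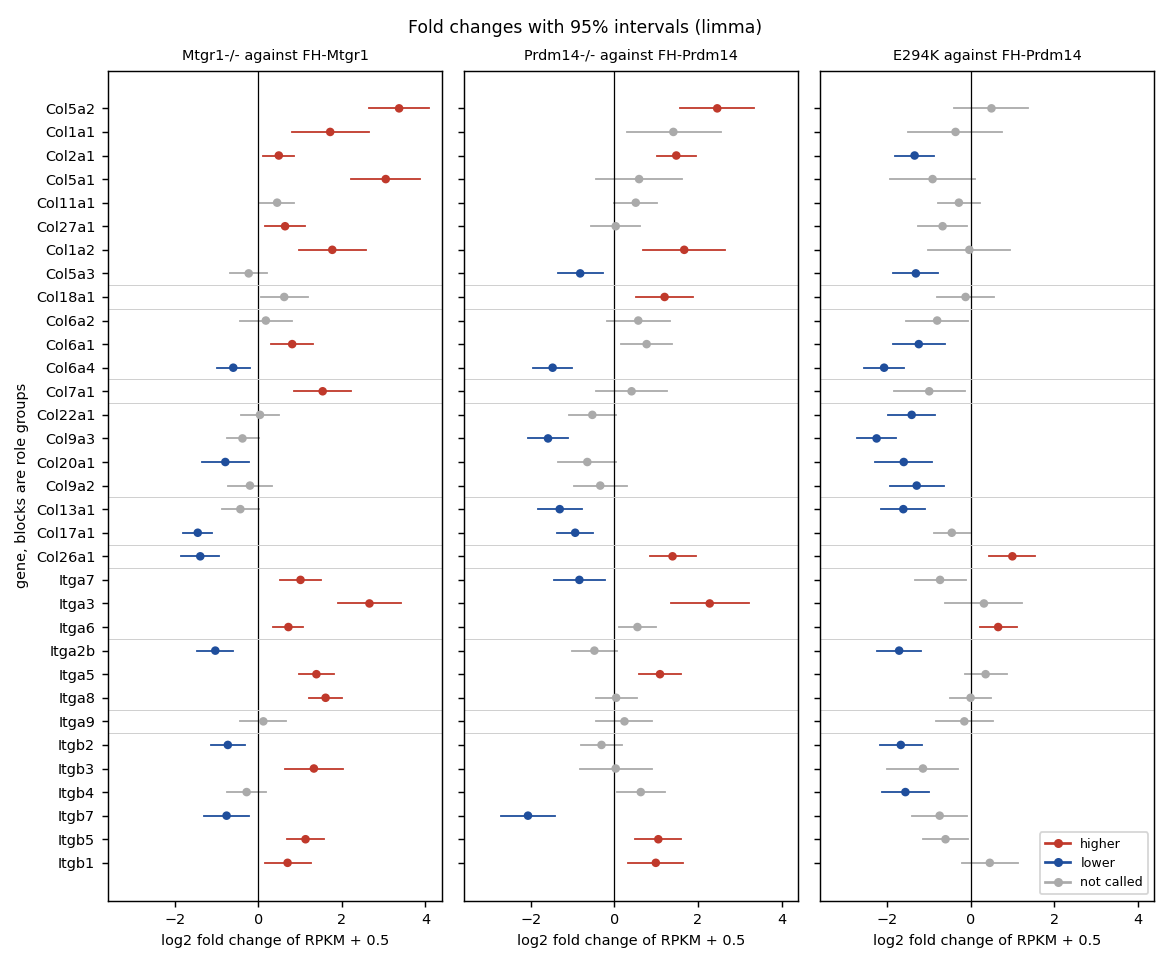
Log2 fold change of RPKM + 0.5 (horizontal) with 95% intervals for the 33 members (vertical, in role groups) in 3 comparisons with rescue lines, red for higher, blue for lower and grey for not called. Col5a2 and Itga3 are to the right in both knockout panels and near 0 in the E294K panel, where Col9a3 and Col6a4 are farthest to the left.

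E294K was also compared with the Prdm14-/- clones from which it was made. Here 1 member was higher in E294K (15.1% of all genes tested were) and 21 were lower (17.8% of all genes), with a median of -0.94 over the members and 0.00 over all genes. Col5a2, Col1a2 and Col11a1 passed the filter only through knockout clones, which favoured their calls of lower here. Col2a1 was at 3.04 and 2.85 RPKM in E294K and 27.9 and 20.5 RPKM in Prdm14-/- (−2.83 ± 0.21, limma, adjusted p = 2.18e-05). Itgb4 (−2.19 ± 0.26), Col6a1 (−2.00 ± 0.28), Col5a2 (−1.96 ± 0.41), Itga3 (−1.96 ± 0.43) and Itgb5 (−1.64 ± 0.25) followed. Itgb7 was the member that rose, from 3.94 ± 2.05 to 10.0 ± 0.826 RPKM (SD, n = 2). The Spearman correlation of the fold change with GC content was -0.427 across 12047 genes. After the adjustment for GC content 2 members were higher and 16 lower, and for length 1 and 22. Without Prdm14-/- G6 6 members were called (Col5a2 at an adjusted p of 0.0583, Itga3 at 0.0724). Without E294K G6 9 and without E294K F10 11 were called. With the clone as a block 16 were called, and Col1a1, Itgb3, Itga5, Col5a1, Col20a1 and Col11a1 were no longer called (adjusted p = 0.0504, 0.0846, 0.066, 0.0514, 0.0712 and 0.0534).

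Each knockout was also set against the wt serum+LIF library. This rests on 1 wt library, whose spread was assumed to be that of the other conditions, and both comparisons share it. In Mtgr1-/- 13 members were higher (14.9% of all genes tested were) and 9 lower (22.1% of all genes). In Prdm14-/- 11 members were higher (11.7% of all genes) and 1 lower (13.7% of all genes). Col5a2 rose by 3.57 ± 0.47 in Mtgr1-/- and 2.53 ± 0.50 in Prdm14-/-, and Itga3 by 2.60 ± 0.49 and 2.49 ± 0.52 (limma, adjusted p = 0.00181 and 0.00792). Itgb5, the beta of the vitronectin receptor, was at 9.56 RPKM in wt serum+LIF, 26.0 to 47.2 RPKM in Mtgr1-/- and 42.6 and 30.3 RPKM in Prdm14-/- (1.76 ± 0.29 and 1.86 ± 0.31). Itgb7 fell by 2.13 ± 0.35 and 1.33 ± 0.37. Col2a1 (2.45 ± 0.26) and Itgb4 (1.70 ± 0.32) rose in Prdm14-/-, and Col5a1 (2.46 ± 0.54) and Itga8 (1.49 ± 0.26) in Mtgr1-/-. Of the 7 members higher in both knockouts than in their rescue lines, Col5a2, Itga3, Itgb5 and Col1a2 were also higher than wt in both. Col2a1 and Itgb1 were not called in Mtgr1-/- against wt, and Itga5 and Itgb1 were not called in Prdm14-/- against wt. Itga6 was 37.0 RPKM in wt serum+LIF and changed by 0.08 (95% interval −0.44 to 0.59) and −0.12 (−0.66 to 0.43). For Prdm14-/- the fold changes of 12047 genes had a Spearman correlation of 0.516 with GC content, and with the adjustment 8 members were higher and 3 lower, against 16 and 1 after that for length. For Mtgr1-/- 14 were higher and 10 lower with the GC adjustment, and 14 and 9 with that for length. Without Prdm14-/- G6 5 members were called in that comparison, and Itga3 was at an adjusted p of 0.0582.

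Culture in 2i+LIF was compared with serum+LIF in wt cells. Of the 33 members 3 were higher in 2i+LIF (9.28% of all genes tested were) and 4 lower (13.6% of all genes). Col9a2 was at 17.6 and 10.6 RPKM in 2i+LIF and 3.37 RPKM in serum+LIF (1.87 ± 0.36, limma, adjusted p = 0.00402). Itgb5 was at 24.6 and 18.7 RPKM against 9.56 RPKM (1.13 ± 0.31), and Itga5 at 32.2 and 23.4 RPKM against 14.6 RPKM (0.89 ± 0.28). Col6a4 (−1.67 ± 0.26), Col18a1 (−1.41 ± 0.39), Itga2b (−1.14 ± 0.30) and Col2a1 (−1.06 ± 0.26) were lower in 2i+LIF. Itga3 was at 12.01 and 5.49 RPKM against 13.5 RPKM and did not pass the test (−0.69 ± 0.52, adjusted p = 0.361). The 2i+LIF libraries differed more than any other pair, and Itgb3 was at 6.03 RPKM in the first and 1.42 RPKM in the second. A fit of these conditions alone called 0 members, with 6 at an unadjusted p under 0.05, and voom on the reads called 10. After the adjustment for GC content 4 members were higher and 9 lower, and for length 4 and 4.

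The remaining members were low. Col13a1, a transmembrane collagen, was at 0.535 and 0.591 RPKM in Prdm14-/-, 1.93 and 2.36 RPKM in FH-Prdm14, and 0.412 and 0.315 RPKM in E294K, and it fell by 1.31 ± 0.25 in Prdm14-/- against FH-Prdm14 (limma, adjusted p = 0.00218). Col20a1 and Col22a1, both FACIT members, were at most at 0.364 and 0.472 RPKM in E294K and at least at 1.91 and 1.73 RPKM in FH-Prdm14. Col6a1 and Col6a2, chains of the same type VI trimer, were at 2.93 and 2.59 RPKM in Prdm14-/- G6 and at 1.47 and 1.73 RPKM in F10. Of this pair only Col6a1 rose in Mtgr1-/- against FH-Mtgr1 (0.81 ± 0.23), and Col6a2 differed by 0.18 (95% interval −0.43 to 0.80). The difference between the chains was not tested.

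Col11a1, a fibrillar chain of cartilage, was highest in Prdm14-/- (1.22 and 1.16 RPKM) and did not pass the test against FH-Prdm14 (0.51 ± 0.23, limma, adjusted p = 0.134). Itga9, which binds tenascin and VCAM1, lay between 0.355 and 1.95 RPKM and passed the test in neither knockout against its rescue lines. Itgb2 was under 1 RPKM in all libraries of wt, Mtgr1-/-, FH-Mtgr1 and E294K, and between 1.36 and 1.84 RPKM in Prdm14-/- and FH-Prdm14. It thus passed the filter only through Prdm14-/- and FH-Prdm14, which favoured its calls of lower in E294K.

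Genes around the members were read from 3 lists of genes that work with them. Among 22 tested genes that modify, fold or crosslink collagen, 10 were higher and 3 lower in Mtgr1-/- against FH-Mtgr1, where 26.2% of all genes were higher and 26.1% lower. In Prdm14-/- against FH-Prdm14 7 were higher and 2 lower, where 11.4% and 13.8% of all genes were. Bmp1, the protease that removes the C-propeptide of fibrillar procollagens, rose by 3.02 ± 0.29 and 2.28 ± 0.36 (limma, adjusted p = 1.01e-05 and 0.000756). Serpinh1, the collagen chaperone Hsp47, rose by 2.47 ± 0.28 in Prdm14-/-, from 17.4 to 99.4 RPKM. P4ha1, a subunit of the enzyme that hydroxylates collagen prolines, fell by 2.33 ± 0.27 in Mtgr1-/-, from 35.1 to 6.55 RPKM.

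Of 22 tested cytoplasmic partners of integrins, 14 were higher and 2 lower in Mtgr1-/- (26.2% and 26.1% of all genes), and 7 higher and 4 lower in Prdm14-/- (11.4% and 13.8% of all genes), against their own rescue lines. Parva, which joins integrin-linked kinase to actin, was at 13.6, 11.6 and 14.9 RPKM in Mtgr1-/- and 1.56 to 1.99 RPKM in FH-Mtgr1. In Prdm14-/- it was at 15.2 and 9.78 RPKM against 1.35 and 1.30 RPKM, with E294K at 1.41 and 1.78 RPKM. It rose by 2.60 ± 0.19 and 2.80 ± 0.24 (limma, adjusted p = 2.05e-06 and 1.45e-05). Its partner Ilk rose by 2.22 ± 0.23 in Prdm14-/-. Fermt3, the kindlin of blood cells, fell by 2.08 ± 0.19 in Mtgr1-/- and 1.85 ± 0.23 in Prdm14-/-. In E294K against FH-Prdm14 1 partner was higher and 3 lower, shares of 4.55% and 13.6% beside 6.35% and 13.2% of all genes.

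Of 14 tested integrin ligands other than collagens, 6 were higher and 2 lower in Mtgr1-/- (26.2% and 26.1% of all genes) and 3 higher and 4 lower in Prdm14-/- (11.4% and 13.8% of all genes). Lama5, the alpha chain of basement membrane laminins, rose by 1.91 ± 0.35 in Prdm14-/- (limma, adjusted p = 0.00196), from 39.5 to 154 RPKM. Nid1, which links laminin to collagen IV, rose by 0.99 ± 0.13 in Mtgr1-/- and fell by 1.64 ± 0.16 in Prdm14-/-, where FH-Prdm14 was at 41.3 and 42.0 RPKM and wt serum+LIF at 19.9 RPKM.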

How the data were processed

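RNA-seq values of 15 libraries were analysed. ChIP-seq data of the series are not analysed here. The authors aligned reads to mm9 (NCBIM37), counted them on RefSeq genes and deposited 1 RPKM value per gene and library, with the gene length. Each value was multiplied by gene length and divided by the smallest non-zero product of its library, taken as 1 read. Then 100.0% of values came out as whole reads (tolerance 0.001 reads), which gave the depth. Replicate libraries all differed by more than sampling noise.

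Genes with at least 1 RPKM in at least 2 libraries were kept. A model with 1 mean for each of the 7 conditions was fitted to log2(RPKM + 0.5) of all genes with limma 3.58.1 in R 4.3.3 (eBayes, trend on). The Benjamini-Hochberg adjustment ran over every gene tested, and adjusted p under 0.05 counted as called. The difference between the knockouts' effects was a contrast of the same model. The fits were tested on simulated data. Tables were made with Python 3.11.15, pandas 2.3.3 and numpy 2.4.6.

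The members and gene lists were chosen with earlier results of these data known. Every member past the filter could be named, and in each comparison up to 12 called members in each direction by size of change. List genes were named by the same order, up to 5 a list. A gene of the ligand list is not reported here. The pairing of lines by parental clone comes from the labels. Lines of 1 clone deviated from their condition means with correlations of -0.182 to 0.299.

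Alternatives were pseudocounts of 0.1 and 1, no filter, median-of-ratios scaling, only the compared conditions, limma-voom on the reads, a replicate block by parental clone and leaving out each library. Adjustments for GC content and gene length (lowess, span 0.3) were chosen after seeing the data. Sequences came from GENCODE vM1 transcripts and RefSeq windows.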

Additional observations from a re-analysis of the deposited data

Results flagged for a closer look

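Prdm14-/- against FH-Prdm14 sets loss beside the high Prdm14 level of the rescue lines. For 8 members the effect in this comparison differed from that in Mtgr1-/- against FH-Mtgr1, by a test of the difference itself. These were 6 members with a higher and 2 with a lower effect of 33, while 17.1% of all genes had a higher and 14.3% a lower effect. The members' shares, 18.2% and 6.06%, were thus near and below those of all genes, and the count does not set the members apart. The difference, as Mtgr1-/- effect minus Prdm14-/- effect on the log2 scale, was 2.46 for Col5a1, 1.86 for Itga7, 1.57 for Itga8, 1.32 for Itgb7, 1.21 for Col9a3 and 0.88 for Col6a4. It was -1.0 for Col2a1 and -2.78 for Col26a1. Both Col26a1 and Itga7 were called in opposite directions in the knockouts against their own rescue lines. Itga7 was at 0.69 RPKM in wt serum+LIF, with means of 0.708 RPKM in Prdm14-/- and 1.61 RPKM in FH-Prdm14. Its call in Prdm14-/- was lost under 8 of 13 alternatives. Col26a1 was at 3.19 RPKM in wt serum+LIF, above its means of 2.41 RPKM in Prdm14-/- and 0.567 RPKM in Mtgr1-/-. For Itgb7, Col9a3 and Col6a4 the level in FH-Prdm14 was above that in wt serum+LIF and FH-Mtgr1.

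The differences of Itga7, Itga8, Col9a3 and Col26a1 were called under every alternative. That of Col5a1 was at an adjusted p of 0.0512 without Prdm14-/- F10, and that of Col2a1 at 0.0761 without Prdm14-/- G6 and 0.0941 without FH-Prdm14 F10.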

How the results depend on the processing

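Of 117 counts of called members under an alternative, 100 were within 1.5 times the reported count, 15 were lower and 2 higher. Of 143 single calls of a member in a comparison, 68 held under every alternative. Fits of only the compared conditions called 24 members in E294K against FH-Prdm14, 0 in 2i+LIF against serum+LIF (0 of all genes, with 1593 at an unadjusted p under 0.05), 12 in Mtgr1-/- against wt and 6 in Prdm14-/- against wt. Such fits have fewer libraries to estimate the spread. Without the filter 13 members were called in E294K against Prdm14-/-, 4 in 2i+LIF against serum+LIF and 6 in Prdm14-/- against wt, where more genes were tested. The adjustment for GC content gave 13 in 2i+LIF against serum+LIF, and the cause was not tested.

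Leaving out 1 library gave 9 to 14 calls in Prdm14-/- against FH-Prdm14, 9 to 11 in E294K against FH-Prdm14, 6 to 20 in E294K against Prdm14-/-, 5 to 15 in Prdm14-/- against wt, 12 to 21 in Mtgr1-/- against Prdm14-/- and 5 to 9 in the difference between the knockouts' effects. The fewest calls came without Prdm14-/- G6 in E294K against Prdm14-/- (6) and Prdm14-/- against wt (5), and without FH-Prdm14 F10 in the difference (5). Leaving out G6 lost 38 of 77 calls. Col6a4 turned direction in the difference between the knockouts' effects with limma-voom (−0.01, adjusted p = 0.991), and the cause was not tested.

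The replicate block by parental clone, which pairs lines of 1 clone, gave 22, 15, 13, 16 and 8 called members in the comparisons of paired lines, and lost 9 of 83 calls, each given beside its result, and no other call. With a pseudocount of 0.1, which weighs low values most, 9 of 143 calls were lost.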

Other observations

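Of 14 tested non-collagen integrin ligands 7 were higher and 2 lower in 2i+LIF than in serum+LIF, where 9.28% of all genes were higher and 13.6% lower, with a median log2 fold change of 1.12 against -0.10 over all genes. Nid1 was at 128 and 107 RPKM in 2i+LIF and 19.9 RPKM in serum+LIF (2.53 ± 0.20, limma, adjusted p = 1.58e-05), and Lamb2 rose by 1.93 ± 0.38. Lamb1 was at 13.4 and 12.9 RPKM against 55.5 RPKM (−2.04 ± 0.26) and Lamb3 fell by 1.63 ± 0.37. Among 22 genes that modify, fold or crosslink collagen 8 were higher and 3 lower, and the 3 make up 13.6%, the share of all genes that were lower. Glt25d1, which adds galactose to collagen hydroxylysine, rose by 2.10 ± 0.25, from 32.9 RPKM to 153 and 133 RPKM. The comparison rests on 1 serum+LIF library, and a fit of these conditions alone called 0 genes (limma, 1593 at an unadjusted p under 0.05, while voom on the reads of all libraries called 3256).

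Itga3 and Col1a1, which rose in both knockouts or in Mtgr1-/-, lie near each other on chromosome 11 of NCBIM37, Col1a1 ending at 94814356 and Itga3 starting at 94905788. Col6a2, Col6a1, Col18a1 and Itgb2 lie between 76058507 and 77028453 on chromosome 10. Their log2 fold changes in Mtgr1-/- against FH-Mtgr1 were 0.18, 0.81, 0.62 and -0.73.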
